A study of Homo sapiens with 24 samples.

Results

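MDA-MB-231 cells carrying a control sgRNA (sgCtrl) were compared with MDA-MB-231 cells carrying KIF20A sgRNA #1 (KIF20A sg1, labelled as KIF20A knockdown) by poly-A RNA-Seq, with 3 libraries in each group. These 6 libraries of the 24 in the series were taken by their labels, without use of any measured value. MDA-MB-231 is an established triple-negative breast cancer line of mesenchymal type. Both groups went through lentiviral infection and puromycin selection, share a single batch label and are described as biological triplicates. The methods describe selected populations and no single-cell clone. They name sgRNA #1 for this experiment, and the deposited columns read SG1_1 to SG1_3, but the library titles read KIF20A SG1, SG2 and SG3 and do not say whether the number is a guide or a replicate. It was taken as the replicate of a single guide, in which case an effect of KIF20A and an effect of this guide cannot be told apart. Values are those the authors named CPM, in which each library's reads are scaled by a single factor. Depth was 41424338 to 51018667 reads. The 12852 genes with a mean of at least 1 CPM were tested by limma on log2(CPM + 1), and every log2 difference below is KIF20A sg1 minus sgCtrl on that scale. Levels are given for libraries 1, 2 and 3 of each group in that order, with sgCtrl before KIF20A sg1. In bulk RNA, fewer cells of a kind and less RNA per cell cannot be told apart.

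KIF20A encodes a motor protein of the kinesin-6 family, whose members act at the spindle midzone and cleavage furrow and are needed for cytokinesis. Like most mitotic genes it is transcribed mainly in G2 and M phase, under control of the DREAM and MMB-FOXM1 complexes, which act through the cell cycle genes homology region (CHR) of their promoters. Its transcript level therefore follows the cycling share of a culture.

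The identity of the line was checked with marker lists. All 14 genes of the MDA-MB-231 list were tested and summed to 11790 to 14127 CPM a library, with a median log2 difference of 0.01. VIM, the mesenchymal intermediate filament, was at 555, 689 and 795 CPM with the control guide, against 764, 709 and 676 CPM with KIF20A sg1. ESR1, PGR and FOXA1, which define luminal breast cells, were listed at 0 in all 6 libraries. The other 9 of the 12 genes in the luminal and epithelial list were tested. These 9 include KRT8, KRT18 and KRT19 and summed to 1081 to 1747 CPM a library. Of the basal list, 1 of 8 genes (TP63) was tested, at 0.62 to 1.96 CPM. Of the leukocyte list 2 of 6 genes (CSF1R and CD14) were tested, which summed to 11.3 to 22.7 CPM a library. Of the fibroblast list 2 of 6 (PDGFRB and COL1A1) were tested, which summed to 19.6 to 30.4 CPM. Of 9 markers of HEK293 cells, PAX8 alone was tested, at 15.3 to 21.9 CPM, and the highest value of the other 8 in any library was 0.0439 CPM.

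KIF20A itself was lower in KIF20A sg1, but the difference did not pass adjustment. Its 3 control values were 153, 173 and 156 CPM, and its KIF20A sg1 values 122, 145 and 91.1 CPM. The groups did not overlap, and KIF20A sg1 library 2 lay closest to the controls. The log2 difference was -0.45 with a standard error of 0.16 (limma adjusted P = 0.69). The exact permutation test gave a two-sided p of 0.1, the smallest that 3 libraries against 3 allow. Without KIF20A sg1 library 3 the log2 difference was -0.27. With library weights, which limma set at 5.44 for sgCtrl library 2 and at 0.233 to 1.98 for the others, it was -0.51 and passed (limma adjusted P = 0.0106). In that weighted fit 2704 of the 12852 genes tested (21.0%) passed as well. An edited transcript that is still made is counted here, and protein was not measured in these libraries.

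Set against the other mitotic genes, KIF20A stood lower. The 29 G2/M genes tested, which do not include KIF20A, had median levels of 7.50, 7.65 and 7.84 on the log2(CPM + 1) scale in sgCtrl and of 8.01, 7.92 and 7.64 in KIF20A sg1. Relative to this median, KIF20A was at -0.23, -0.20 and -0.55 in sgCtrl and at -1.06, -0.73 and -1.12 in KIF20A sg1 (log2). The relative level did not overlap between groups, and the means of -0.33 ± 0.19 and -0.97 ± 0.21 (SD) differed by -0.64.

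**Figure D1:**
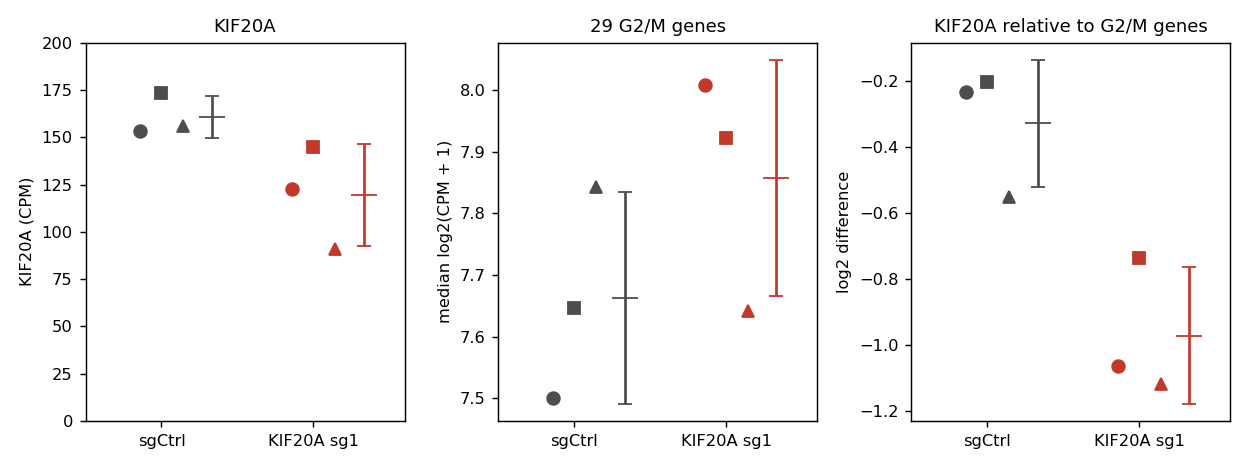
KIF20A in CPM (left), the median log2(CPM + 1) of 29 G2/M genes (middle) and KIF20A minus that median (right), with circles, squares and triangles for libraries 1, 2 and 3 and bars for the mean ± SD of each group. The G2/M medians overlap between groups, whereas KIF20A and its level relative to the G2/M median do not.

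The CHR letters TTTGAA or TTTAAA, searched on both strands so that TTCAAA counts as well, lay within 100 bases before the RefSeq transcription start (GRCh38.p14) of 13 of the 22 G2/M genes and 7 of the 13 mitotic kinesins with a promoter entry, against 10.1% of 27305 genes. They are shown for KIF20A and for 3 other mitotic genes, since these promoters share the letters while their transcripts differ in direction. Capitals mark the CHR letters in 30 bases of the plus strand, at chr5:138179059-138179088 (KIF20A), chr5:69167108-69167137 (CCNB1), chr16:23678848-23678877 (PLK1) and chr10:92593090-92593119 (KIF11). In GENCODE 44 each window lies within its own gene, in an exon for CCNB1 and PLK1 and outside exons for KIF20A and KIF11.
KIF20A: cgcagcgcgtaaTTTAAAatattgtatctg
CCNB1: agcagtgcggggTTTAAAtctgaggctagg
PLK1: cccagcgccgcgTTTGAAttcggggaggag
KIF11: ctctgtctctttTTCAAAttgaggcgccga
A match of letters is a description and not a binding site. CCNB1, the mitotic cyclin, was at 290.1, 362 and 439.5 CPM with the control guide, against 459.6, 484 and 365 CPM with KIF20A sg1. PLK1, a mitotic kinase, had a log2 difference of 0.23 and KIF11, the motor that separates spindle poles, one of 0.30, and the groups overlapped for all 3.

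By the mean of each group, the other mitotic kinesins were level with or above the controls. Of 13 tested, KIF20A, KIF18B, KIF22 and KIFC1 had a negative log2 difference, of -0.09 to -0.01 for the last 3, which were at 0.10, 0.06 and 0.06 with the trends on GC content and transcript length removed from each library. The list had a median of 0.24 (0.17 with these trends removed), against 0.00 over all genes tested. Its median deviations were -0.24, -0.22 and 0.04 in sgCtrl and 0.17, 0.30 and -0.04 in KIF20A sg1, so the groups overlapped. At an unadjusted P under 0.05, 5 members lay on the higher side (38.5%, against 2.28% of all genes tested) and KIF20A on the lower side, where all genes tested gave 4.72%. KIF20B, a kinesin-6 relative of KIF20A, was at 154, 165 and 215 CPM with the control guide, against 240.2, 269 and 227 CPM with KIF20A sg1. Its groups did not overlap (log2 difference 0.47, standard error 0.15, limma adjusted P = 0.69). KIF23, the motor of centralspindlin and also a kinesin-6 protein, had a log2 difference of 0.37, and CENPE, which moves chromosomes to the spindle equator, one of 0.44, with overlapping groups for both. With the same trends removed, the log2 differences of KIF20B and CENPE were 0.29 and 0.25.

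Cytokinesis and G2/M genes showed the same order of libraries. Of 12 cytokinesis genes tested, 9 were higher (median 0.20), and of 29 G2/M genes, 25 were higher (median 0.17). Over all genes tested, 49.6% had a log2 difference under 0. At an unadjusted P under 0.05, 1 cytokinesis gene (8.33%) and 2 G2/M genes (6.90%) were higher, against 2.28% of all genes tested. With a library left out, the cytokinesis median ranged from 0.11 (without KIF20A sg1 library 2) to 0.30 (without KIF20A sg1 library 3). The G2/M median was 0.07 without sgCtrl library 1, 0.10 without KIF20A sg1 library 2 and 0.28 without KIF20A sg1 library 3. ECT2, the exchange factor that activates RhoA at the cleavage furrow, was at 239, 251 and 316 CPM against 338, 390.5 and 301 CPM, and ANLN, which links actin and septins in the contractile ring, was at 637, 705 and 911 CPM against 965, 1165 and 814 CPM. In both genes KIF20A sg1 library 3 lay under the highest control. CENPF, a kinetochore protein, did not overlap, at 484, 446 and 444 CPM against 621, 695 and 506 CPM (log2 difference 0.40, standard error 0.14). MKI67, the proliferation marker, did overlap, at 785, 545 and 484 CPM against 772, 886 and 743 CPM. Over the G2/M list, the median deviation from each gene's mean was -0.22, -0.06 and 0.05 in sgCtrl and 0.17, 0.20 and -0.13 in KIF20A sg1, so the spread within groups (SD 0.16) was as wide as the median difference.

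S phase genes went the other way. Of 29 tested, 21 were lower (median -0.10), 4 of them at an unadjusted P under 0.05 (13.8%, against 4.72% of all genes tested). MCM5, a subunit of the replicative helicase, was at 141, 132 and 120.2 CPM against 101, 108 and 99.5 CPM, and FEN1, which trims Okazaki fragments, was at 149, 137 and 140.4 CPM against 108, 112 and 120.0 CPM. Both were separate between groups, but the median of the list was 0.0072 without sgCtrl library 3, -0.18 without sgCtrl library 2 and -0.16 without KIF20A sg1 library 2. The 20 p53 targets tested had a median of -0.14, which was -0.04 without sgCtrl library 1, -0.28 without sgCtrl library 3, -0.025 without KIF20A sg1 library 2 and -0.29 without KIF20A sg1 library 3. CDKN1A, the CDK inhibitor induced by p53, overlapped at 129.9, 125 and 67.1 CPM against 109, 64.5 and 114 CPM.

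The tested genes nearest to KIF20A (GRCh38, chr5:138178719-138187723, plus strand in GENCODE 44) differed less between groups than KIF20A did. BRD8 and CDC23, whose exons overlap those of KIF20A on the opposite strand, had log2 differences of -0.01 and 0.12. The libraries were stranded, but the strand setting of the counting was not given, so overlapping reads could be counted for either gene. FAM13B was higher without overlap, at 54.2, 44.7 and 56.2 CPM against 64.5, 70.6 and 64.4 CPM. The other tested neighbours, from TGFBI to REEP2, overlapped between groups, with log2 differences of -0.36 (REEP2) to 0.21 (SMAD5, a BMP signal transducer), among them CDC25C, the phosphatase that activates CDK1 (0.01), and KDM3B, a histone demethylase (-0.02). Along the chromosome, 366 genes before KIF20A had a median of 0.07 and 223 genes after it one of -0.09. Their transcripts differed in GC content, with medians of 41.2% and 50.2%, and with the GC and length trends removed the medians were -0.01 and -0.08. For the genes after KIF20A, the median deviations were 0.06, 0.10 and 0.02 in sgCtrl and -0.04, -0.05 and -0.07 in KIF20A sg1, without overlap. Chromosomes 19 and 22 had similar median log2 differences before the trends were removed (-0.10 and -0.11). With the trends removed, the medians of the other nuclear chromosomes ran from -0.02 (chromosome 22) to 0.05 (chromosome 13). The cause was not tested.

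Over all genes, the differences were small. No gene had an adjusted P under 0.05 by limma (0%), with the smallest at 0.69. At an unadjusted P under 0.05, 606 genes were lower and 293 higher, 899 in all. The groups did not overlap for 938 genes that were lower (7.30%) and 737 that were higher (5.73%), and the log2 difference was under 0 for 49.6% of genes. The median absolute log2 difference was 0.14, and 13 genes differed by more than 1. edgeR on whole reads also gave 0 genes with an adjusted P under 0.05, with 973 at an unadjusted P under 0.05, whereas DESeq2 gave 16 (0.130%), 13 lower and 3 higher. Without sgCtrl library 3, limma gave 144 genes (1.12%), 137 lower and 7 higher, and without KIF20A sg1 library 2 it gave 5. With library weights, which rested most on sgCtrl library 2, it gave 2704 genes (21.0%), 1673 lower and 1031 higher.

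The genes with the smallest P values on the higher side included several that handle fat and pyruvate. PDK4, the kinase that inhibits pyruvate dehydrogenase, had the smallest limma P of all genes, at 1.097, 3.16 and 2.49 CPM with the control guide, against 6.103, 8.47 and 7.42 CPM with KIF20A sg1 (log2 difference 1.41, standard error 0.25). PDK4 also passed DESeq2 (adjusted P = 0.0025). The higher genes named here were picked among genes with separate groups, so their separation is not a result. TGFA, a ligand of EGFR, was at 104, 98.3 and 98.2 CPM against 150.4, 132 and 149.7 CPM (log2 difference 0.52, standard error 0.11). PLIN2, a coat protein of lipid droplets, was at 44.8, 54.3 and 60.7 CPM against 76.03, 75.1 and 103 CPM. In CPT1A, which loads fatty acids for entry into mitochondria, the values were 56.6, 67.5 and 38.2 CPM against 86.3, 86.4 and 109 CPM, and the lowest control was sgCtrl library 3. MMP1, the interstitial collagenase, had the largest log2 difference (2.53), but its 3 KIF20A sg1 values spread widely, at 2.59, 3.24 and 2.87 CPM against 22.7, 5.97 and 67.5 CPM. The other higher genes were FAM133A, MAST4, JMJD1C, ARHGAP5, PDK3, CCDC88A and BORA, with log2 differences of 0.41 (CCDC88A) to 0.78 (FAM133A). PDK3 is a relative of PDK4, and BORA activates mitotic kinases.

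PDK4, CPT1A, PLIN2 and ANGPTL4 are known targets of PPAR transcription factors. A list of 19 PPAR targets and fatty acid oxidation genes was therefore drawn up after these values were seen, and these 4 genes give no independent support to it. Of the 16 genes tested, 13 were higher, with a median of 0.19. ANGPTL4, a secreted inhibitor of lipoprotein lipase, was at 1.031, 1.43 and 1.12 CPM with the control guide, against 3.01, 2.74 and 8.37 CPM with KIF20A sg1 (log2 difference 1.25, DESeq2 adjusted P = 0.0083). Enzymes of the oxidation spiral differed less, with log2 differences of 0.09 for ACADVL and -0.10 for ACADM. ACAA2, a mitochondrial thiolase, was higher without overlap (0.32), and ECI1, an isomerase of unsaturated fatty acids, was lower without overlap (-0.48). LPL, lipoprotein lipase itself, was lower, at 5.22, 7.29 and 6.90 CPM against 2.22, 3.43 and 3.53 CPM, and was also picked among genes with separate groups.

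**Figure D2:**
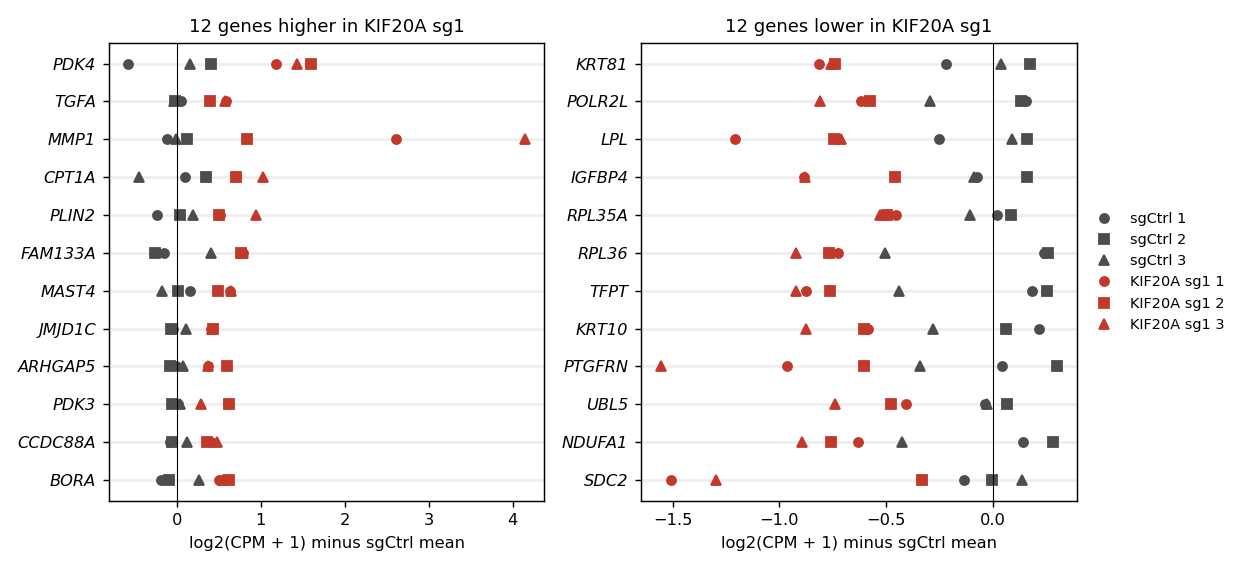
The 12 higher (left) and 12 lower (right) genes with the smallest limma P among those with separate groups and a mean of at least 5 CPM in a group, as log2(CPM + 1) minus the sgCtrl mean, with 1 point per library (grey, sgCtrl; red, KIF20A sg1). MMP1 spreads most among the KIF20A sg1 libraries, and sgCtrl 3 is the control nearest to KIF20A sg1 for RPL36, TFPT and NDUFA1.

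On the lower side, KRT81, a hair keratin, had the smallest limma P, at 10.1, 13.6 and 12.3 CPM with the control guide, against 6.35, 6.73 and 6.63 CPM with KIF20A sg1 (log2 difference -0.77, standard error 0.16). IGFBP4, a secreted binding protein of insulin-like growth factors, was at 1525, 1791 and 1509 CPM with the control guide, against 869, 1168 and 872 CPM with KIF20A sg1 (log2 difference -0.74, DESeq2 adjusted P = 0.0097). The lower genes of this paragraph were likewise picked among genes with separate groups, so their separation is not a result. SDC2, a heparan sulfate proteoglycan of the cell surface, was at 27.9, 30.7 and 33.9 CPM against 10.2, 24.2 and 11.9 CPM, and PTGFRN, a partner of tetraspanins, was at 11.4, 13.9 and 8.505 CPM against 5.18, 6.94 and 3.101 CPM. In these 2 genes KIF20A sg1 library 2 was the highest of its group. UBL5, a ubiquitin-like protein, had a log2 difference of -0.54 and KRT10, an epidermal keratin, one of -0.69.

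In several other lower genes, sgCtrl library 3 lay between the other controls and KIF20A sg1. SAA1, the acute phase serum amyloid A, was at 397, 355 and 154 CPM with the control guide, against 112, 143 and 121 CPM with KIF20A sg1 (log2 difference -1.15, DESeq2 adjusted P = 0.0025). POLR2L, a small subunit shared by the RNA polymerases, was at 112, 110.3 and 81.7 CPM against 65.02, 67.1 and 56.8 CPM. ATP5IF1, the inhibitor of ATP synthase, was at 41.1, 41.7 and 18.8 CPM against 17.6, 14.8 and 13.5 CPM (log2 difference -1.02). The same shape was seen in MRPL12, of the mitochondrial ribosome, at 13.7, 11.3 and 4.01 CPM against 2.95, 3.47 and 3.34 CPM, and in PFDN6, a prefoldin subunit, at 38.1, 38.8 and 17.8 CPM against 16.3, 14.5 and 12.7 CPM. COL4A2, a basement membrane collagen, was at 330.5, 317 and 202 CPM against 151, 197 and 146 CPM, and TFPT, a subunit of the INO80 remodeller, had a log2 difference of -0.85. SAA1, ATP5IF1, MRPL12 and PFDN6 are among the 10 genes of smallest P without sgCtrl library 3, a choice that favours this shape. SNHG32, EDF1 and S100A2, also among these 10, overlapped between groups once that library was kept. SNHG32, a host gene of small nucleolar RNAs, was at 19.4, 18.6 and 4.21 CPM against 4.85, 4.76 and 5.53 CPM.

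Oxidative phosphorylation (OXPHOS) depends on subunits encoded in the nucleus and in mitochondrial DNA, and the study drew attention to this pathway on these same libraries, so the direction of the list is not independent evidence. Of 77 nuclear subunits tested, 67 were lower, 15 at an unadjusted P under 0.05 (19.5%, against 4.72% of all genes tested), and 0 was higher at that P by limma. The median deviation of the list was -0.01, 0.12 and 0.15 in sgCtrl and -0.05, -0.03 and -0.17 in KIF20A sg1, so that the groups were separate, with sgCtrl library 1 next to the KIF20A sg1 libraries. These transcripts are short (median 758 bases, against 3231 over all genes tested). With the GC and length trends removed, the median difference went from -0.16 to -0.07, 63 genes were lower and the groups overlapped.

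Complex I, the NADH dehydrogenase, had 30 of 36 subunits lower (median -0.16) and complex IV, cytochrome c oxidase, 9 of 10 (median -0.18). NDUFA1, an accessory subunit of complex I, was at 37.8, 41.7 and 25.2 CPM with the control guide, against 21.7, 19.8 and 17.9 CPM with KIF20A sg1 (log2 difference -0.76, standard error 0.19), and NDUFB8, another accessory subunit, was at 3.86, 3.504 and 1.75 CPM against 1.27, 1.55 and 1.503 CPM. In both, the groups were separate and sgCtrl library 3 lay next to KIF20A sg1. SDHA, the flavoprotein of complex II, overlapped at 13.2, 13.7 and 11.1 CPM against 12.96, 11.6 and 9.83 CPM. UQCRH, the hinge protein of complex III, was at 98.5, 104 and 87.9 CPM against 75.5, 73.6 and 72.4 CPM, with the controls closer together (log2 difference -0.38, standard error 0.12). COX5B and COX8A, of complex IV, had log2 differences of -0.67 and -0.65, with sgCtrl library 3 (41.9 and 44.4 CPM) under the other controls (at least 66.6 and 69.1 CPM). For ATP5MF, of ATP synthase, the groups overlapped, at 43.9, 41.3 and 24.95 CPM against 23.3, 25.1 and 21.3 CPM.

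The transcripts of mitochondrial DNA (mtDNA) did not follow the nuclear subunits. All 13 protein genes of mtDNA had a positive log2 difference, with a median of 0.65, but 1 of them was at an unadjusted P under 0.05 (7.69%, against 2.28% of all genes tested). The median was 1.16 without sgCtrl library 1, 0.39 without sgCtrl library 3 and 0.42 without KIF20A sg1 library 3. The gene at that P, MT-CO2, a core subunit of complex IV, was at 2844, 1584 and 1489.6 CPM with the control guide, against 2993, 2195 and 3978 CPM with KIF20A sg1. MT-ND4, a core subunit of complex I, was at 3610.4, 1597 and 1214 CPM against 3348, 2217 and 5326 CPM. The mtDNA protein genes took 2.55%, 1.14% and 0.962% of the signal in sgCtrl and 2.19%, 1.47% and 3.41% in KIF20A sg1. sgCtrl library 1 lay among the KIF20A sg1 libraries, and the spread within groups (SD 0.70 of the median deviation, log2) exceeded the median difference.

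**Figure D3:**
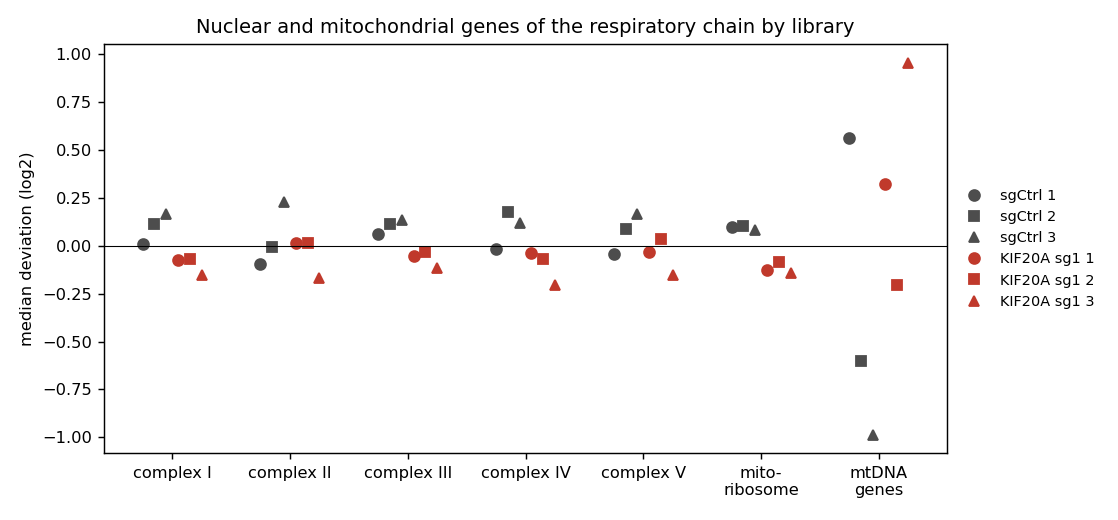
Median deviation (log2) of the genes of each respiratory complex, the mitochondrial ribosome and the mtDNA protein genes from their mean over 6 libraries, 1 point per library (grey, sgCtrl; red, KIF20A sg1). The mitochondrial ribosome is tightest within groups, whereas the mtDNA genes run from -0.99 to 0.95 with the groups mixed.

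The mitochondrial ribosome, which translates the mtDNA messages, separated the groups with little spread. Its 43 nuclear-encoded proteins have short transcripts (median 1083 bases). In the shortest eighth of the genes tested, 14.2% were lower at an unadjusted P under 0.05. Of the 43 proteins, 39 were lower, 12 at that P (27.9%, against 4.72% of all genes tested), with a median of -0.22. The median deviation was 0.10, 0.10 and 0.08 in sgCtrl and -0.13, -0.09 and -0.14 in KIF20A sg1, a spread within groups of 0.02. With the GC and length trends removed, which moved the median to -0.13, the groups still did not overlap. MRPL41, of the large subunit, was at 48.9, 41.6 and 32.8 CPM against 24.3, 30.04 and 27.8 CPM. The 11 regulators of mitochondrial biogenesis had a median of 0.04, with 5 lower and 6 higher, and the median turned negative without sgCtrl library 1 (-0.04), sgCtrl library 3 (-0.08) or KIF20A sg1 library 3 (-0.09).

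Proteins of the cytosolic ribosome were lower on average as well. Their transcripts are short (median 869 bases). Of 77 tested, 68 were lower, with a median of -0.19 (-0.12 with the GC and length trends removed). At an unadjusted P under 0.05, 18 were lower (23.4%, against 4.72% of all genes tested and 14.2% of the shortest eighth). The median deviation was -0.06, 0.13 and 0.23 in sgCtrl and -0.04, -0.07 and -0.16 in KIF20A sg1, so sgCtrl library 1 lay among the KIF20A sg1 libraries. RPL35A was at 269, 281 and 246 CPM against 193, 188 and 183 CPM, the gene of the list with the smallest limma P (log2 difference -0.49, standard error 0.11). RPL36 was at 281, 285 and 167 CPM against 143, 139 and 125 CPM, and RPS2 at 1115, 1125 and 889.6 CPM against 698, 715 and 705 CPM. Reads of these genes can be shared with pseudogene copies, so their levels are uncertain.

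Genes of cholesterol synthesis and uptake were lower with little spread. Of 22 tested, 20 were lower, 6 at an unadjusted P under 0.05 (27.3%, against 4.72% of all genes tested), with a median of -0.22 and deviations of 0.10, 0.08 and 0.14 in sgCtrl and -0.07, -0.09 and -0.15 in KIF20A sg1. With the GC and length trends removed all 22 were lower (median -0.18) and the groups stayed separate. PMVK, phosphomevalonate kinase, was at 20.95, 20.51 and 13.7 CPM against 13.6, 11.9 and 10.1 CPM. INSIG1, which holds the sterol sensor in the endoplasmic reticulum, was highest in sgCtrl library 3, at 34.1, 29.8 and 64.3 CPM against 29.7, 27.7 and 20.8 CPM. SCD, a fatty acid desaturase outside the list, was also highest there, at 175, 129 and 262 CPM against 65.5, 130.3 and 60.96 CPM, and KIF20A sg1 library 2 reached the lowest control.

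**Figure D4:**
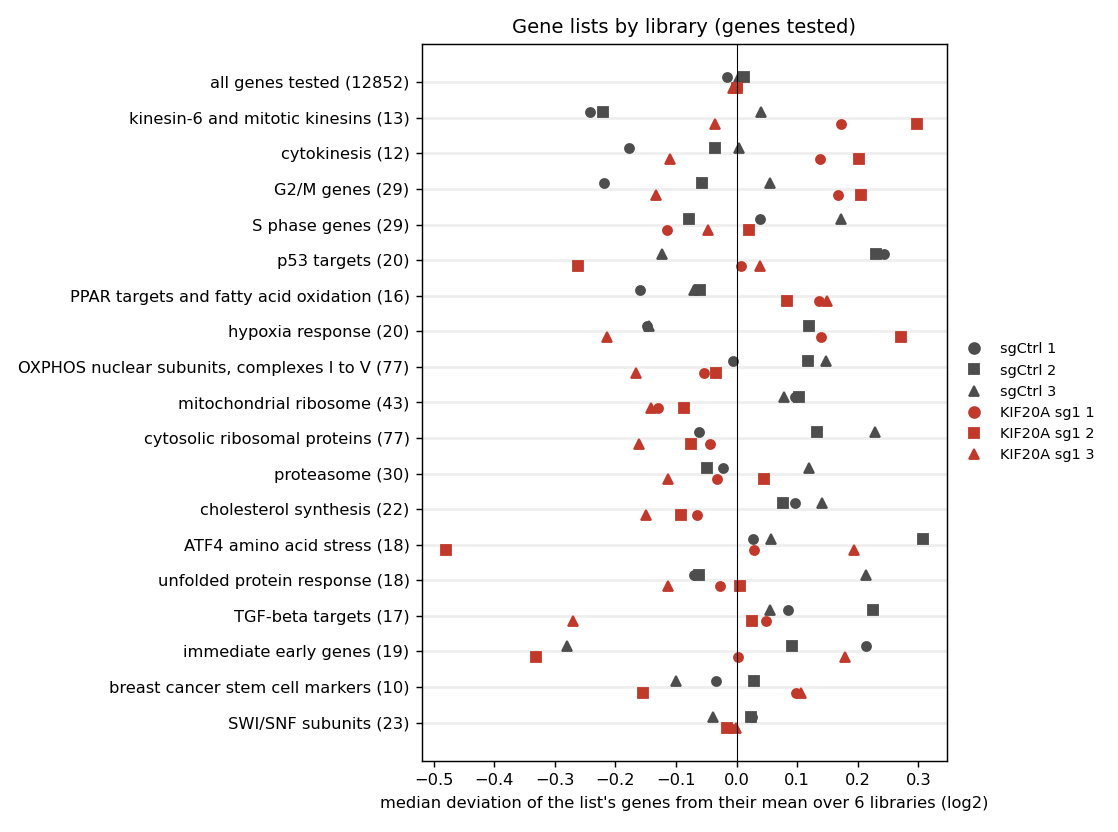
Median deviation (log2) of the genes of each list from their mean over 6 libraries, 1 point per library (grey above, sgCtrl; red below, KIF20A sg1), with the number of genes tested in parentheses. The groups are separate for nuclear OXPHOS subunits, the mitochondrial ribosome, cholesterol synthesis, TGF-beta targets and the PPAR list, which was drawn up after values were seen.

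In several other pathways the spread within groups was wider than the median difference. It was narrower for the proteasome (SD 0.085) and for YAP and TEAD targets (SD 0.052). Genes driven by ATF4 in amino acid stress had a median of -0.21 (15 of 18 lower), with deviations of 0.03, 0.31 and 0.06 in sgCtrl and 0.03, -0.48 and 0.19 in KIF20A sg1, where library 2 stood apart. The direction of this median depended on that library, since it was 0.06 without it, and it was -0.33 without sgCtrl library 1 and -0.12 without sgCtrl library 2. The hypoxia response had a median of 0.13 (15 of 20 higher), with KIF20A sg1 libraries at 0.14, 0.27 and -0.21. It was 0.08 without sgCtrl library 1, 0.25 without sgCtrl library 2, 0.07 without KIF20A sg1 library 1 and 0.31 without KIF20A sg1 library 3. Of its genes, 1 was lower at an unadjusted P under 0.05 (5%, against 4.72% of all genes tested) and 5 were higher (25%, against 2.28%), including PDK1, another pyruvate dehydrogenase kinase, at 53.2, 49.95 and 53.4 CPM against 64.6, 77.4 and 63.04 CPM, and HK2, a hexokinase (log2 difference 0.32), both without overlap. The TGF-beta targets had a median of -0.13 (13 of 17 lower), which was 0.01 with the GC and length trends removed, -0.25 without KIF20A sg1 library 1 and -0.06 without KIF20A sg1 library 3. PMEPA1, a feedback inhibitor of TGF-beta signalling, was at 70.6, 92.1 and 58.1 CPM against 55.7, 36.4 and 39.7 CPM. Lists with overlapping groups were interferon-stimulated genes (median -0.03), inflammatory cytokines (-0.07), the unfolded protein response (-0.06), glycolysis (-0.06), the proteasome (-0.09), the TCA cycle (-0.05), heat shock genes (0.07), YAP and TEAD targets (-0.08) and the Notch pathway (-0.06). All of these medians except that of the proteasome changed sign when at least 1 of the libraries was left out, and that of the proteasome did so with the length trend removed.

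Most of the stem cell markers that the study followed by name were too low to be tested. CD24, POU5F1, SOX2 and NANOG were under the minimum. CD44, the hyaluronan receptor used for sorting, was at 1457, 1506 and 1247 CPM against 1370.4, 1559.7 and 1241 CPM (log2 difference -0.01, standard error 0.16). ALDH1A3, a retinaldehyde dehydrogenase, was at 13.3, 19.1 and 7.96 CPM against 16.1, 11.9 and 14.2 CPM. In a wider list of 18 markers, 10 were tested, and no value of the other 8 exceeded 0.878 CPM. The median of the 10 was 0.11, and 0 of them was at an unadjusted P under 0.05 by limma. It was 0.03 without sgCtrl library 1, -0.0035 without sgCtrl library 3, 0.04 without KIF20A sg1 library 1 and 0.07 without KIF20A sg1 library 3. All 23 subunits of the SWI/SNF chromatin remodeller were tested, with a median of 0.04, which was 0.09 without sgCtrl library 1, -0.0039 without sgCtrl library 3 and 0.018 without KIF20A sg1 library 2. SMARCA4, its ATPase, was at 303, 281 and 222 CPM against 244, 254 and 243 CPM, and ARID1A, which targets it to chromatin, had a log2 difference of 0.15. BCL7C, an accessory subunit, was lower without overlap, at 16.8, 15.2 and 12.1 CPM against 10.3, 10.3 and 9.09 CPM.

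All 9 keratins tested, in a list drawn up after KRT81 and KRT10 had been seen, were lower, with a median of -0.29, which was -0.18 without sgCtrl library 2 and -0.19 without KIF20A sg1 library 3. The luminal list, which shares KRT8, KRT18 and KRT19 with it, also had 9 of 9 lower. KRT8 overlapped, at 737, 821 and 655 CPM against 597, 691 and 474 CPM. Keratin transcripts are GC-rich (median 59.3%, against 48.1% over all genes tested), and with the GC and length trends removed their median was -0.09.

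Libraries of one group differed among themselves about as much as the groups did. Differences within groups made up 77.7% of the variance of the log2 values around each gene's mean, and they hold 4 of its 5 degrees of freedom (80%), the share that they would take with no difference between groups. The leading component of the variation within groups held 47.3% of it, with sgCtrl 1 at -0.54, sgCtrl 3 at 0.72, KIF20A sg1 2 at 0.31 and KIF20A sg1 3 at -0.25. With the GC and length trends removed these 4 libraries were at -0.47, 0.44, 0.55 and -0.53. sgCtrl library 3 was nearer to each KIF20A sg1 library (median absolute log2 difference per gene 0.17 to 0.20) than to the other controls (0.26 and 0.30). Genes at the positive end of the component were NNMT, EFEMP1, TNFRSF11B, PLAC8, FST, IER5L, PDE4B and CD55, and those at the negative end EGR1, MT-ATP8, CSF3, ASB2, MTCO1P12, AC004263.2, MT-ND1 and MT-ND4L. EFEMP1, a matrix fibulin, was at 72.2, 111 and 149 CPM against 46.8, 142 and 39.3 CPM. EGR1, an immediate early transcription factor, was at 58.7, 11.2 and 8.34 CPM against 57.4, 18.7 and 74.1 CPM, so that high and low libraries occurred in both groups.

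The libraries also differed in how level followed transcript composition. In the eighth of genes with the lowest GC content (27.8% to 38.9%), the median deviations were -0.23, -0.15 and 0.17 in sgCtrl and 0.05, 0.11 and 0.06 in KIF20A sg1. In the eighth with the highest GC content (60.8% to 76%), they were 0.21, 0.24 and -0.16 in sgCtrl and -0.07, -0.14 and -0.10 in KIF20A sg1. sgCtrl libraries 1 and 2 thus sloped upward with GC content, and sgCtrl library 3 sloped downward like the KIF20A sg1 libraries. The median log2 difference between the groups went from 0.15 to -0.20 over these eighths, and the share of genes lower at an unadjusted P under 0.05 from 0.187% to 14%. By length, the median difference went from -0.11 in the shortest eighth (up to 1296 bases) to 0.11 in the longest (from 6903 bases). Here the 3 controls kept together, at 0.07, 0.08 and 0.04 in the shortest eighth against -0.03, -0.06 and -0.10 in KIF20A sg1. With both trends removed, limma gave 0 genes with an adjusted P under 0.05 and 692 at an unadjusted P under 0.05, and the log2 difference of KIF20A was -0.45. PDK4, CPT1A and PLIN2 were at 1.30, 0.81 and 0.68 in that fit, and RPL36 and POLR2L at -0.57 and -0.46.

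**Figure D5:**
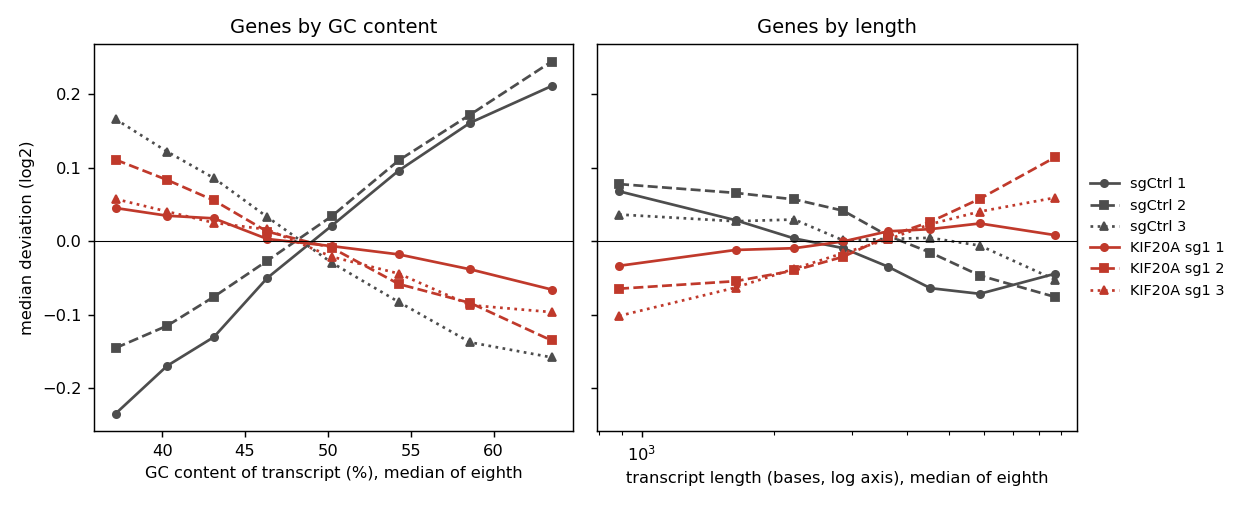
Median deviation (log2) of genes from their mean over 6 libraries, for eighths of the tested genes by GC content (left) and by length (right, log axis) of the canonical transcript, plotted at the median of each eighth, 1 line per library (grey, sgCtrl; red, KIF20A sg1). By GC content sgCtrl 3 runs with KIF20A sg1 and against sgCtrl 1 and 2, and by length the 3 controls are together in the shortest eighth.

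Single libraries had genes of their own. FOS, an immediate early gene, was at 34.3 CPM in sgCtrl library 1 and at most 7.58 CPM in the other 5 libraries, and COL7A1, the collagen of anchoring fibrils, was at 216 CPM there and at most 98.3 CPM elsewhere. METRNL, a secreted protein, was highest in sgCtrl library 2, at 7.01 CPM against at most 3.29 CPM. In KIF20A sg1 library 2, LGALS12, a galectin, was at 13.7 CPM and ANGPT1, an endothelial growth factor, at 11.5 CPM, against at most 4.74 and 4.77 CPM in the others. KIF20A sg1 library 3 had GDF15, a stress-induced cytokine, at 13.98 CPM against at most 4.18 CPM, and it also held the highest MMP1 and ANGPTL4 values. CST1, a cystatin, was highest in KIF20A sg1 library 1 and higher in all 3 KIF20A sg1 libraries than in sgCtrl, at 20.01, 23.2 and 26.3 CPM against 49.9, 32.3 and 30.005 CPM.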

How the data were processed

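Members and gene lists were chosen with earlier results of these data known, and the PPAR and keratin lists after their values were seen. Per the labels, stranded poly-A libraries were made from total RNA. The submitters' processing notes name HISAT2 2.0.5, featureCounts 1.5.0-p3 and GRCh38, while strand setting and annotation were not given in the sources used here. The authors deposited a signal per gene, named CPM, in which reads are scaled by 1 factor a library. Column sums were 977394 to 1028621, and 100% of values were whole multiples of 1 read within 0.01 read. They were used as deposited, and 0 sample columns were left out. Counting error is small at 41424338 reads or more.

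Of 60651 rows, 60437 matched GENCODE 44, from which names, GC content and length of canonical transcripts were taken. Genes averaging 1 or more across the 6 libraries were tested two-sided by limma 3.58.1 in R 4.3.3 on log2(value + 1) with a variance trend and Benjamini-Hochberg adjustment. P values measure the spread between 3 libraries a group. No gene list was tested: counts and medians are given. edgeR 4.0.16 and DESeq2 1.42.0 were run on recovered reads. Deviations are from a gene's mean log2 value. GC and length trends (splines with 5 degrees of freedom) were removed per library, an alternative chosen after seeing the data, as was either trend alone. Other alternatives were pseudocount, minimum, scaling, library weights, replicate block and each library left out. The main limma fit, edgeR and DESeq2 were also run on simulated reads with known changes. Those reads held no GC trend and no variation shared between libraries, and the other fits were not simulated.

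Named genes are KIF20A and its 5 tested neighbours on either side, genes that the study names for these data, the 12 higher and 12 lower genes of smallest P with separate groups and a group mean of 5 or more, DESeq2 calls, the 10 of smallest P without sgCtrl library 3, in each list the 2 of smallest P and 2 of highest level, the 8 of largest loading at each end of the leading component and 4 genes per library by ratio to the other 5. Not every gene of these sets is printed. Others (CCNB1, PLK1, KIF18B, KIF22, KIFC1, CDKN1A, ACAA2, ACADM, ECI1) were chosen after their values were seen. Sequences are from RefSeq promoters on GRCh38.p14. Figures were drawn with matplotlib 3.10.9 in Python 3.11.15.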

Additional observations from a re-analysis of the deposited data

How the results depend on the processing

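No adjusted call by limma arose under another pseudocount, minimum, scaling or trend. Library weights gave 2704 genes with an adjusted P under 0.05 (1673 lower, 1031 higher) and a log2 difference of -0.51 for KIF20A with an adjusted P of 0.0106, and DESeq2 gave 16 genes. Leaving out each library in turn gave 0 to 144 such genes. Of the 899 genes at an unadjusted P under 0.05, the count became 1663 with no minimum, 4779 with library weights and 544 with the GC and length trends and the replicate block, and 307 (without sgCtrl library 2) to 3111 (without sgCtrl library 3) with a library left out. With replicate number as a block (replicate block) the count was 727, with 0 adjusted calls. Deviations of same-numbered libraries correlated at -0.05, -0.11 and -0.16, and each library correlated best with another number. The best matches were sgCtrl library 1 with KIF20A sg1 library 3 (0.26), 2 with 1 (0.28) and 3 with 2 (0.25). Deviations are centred within each group of 3 and share a leading component, so these values cannot show whether libraries were processed in pairs. Without KIF20A sg1 library 2, the difference of 2 named genes turned negative at an unadjusted P under 0.05, ANGPT1 (main 0.09, range -0.58 to 0.48) and PDE4B (main 0.07, range -0.55 to 0.44), where the ranges are over each library left out. Median differences (log2) of lists that moved by more than the spread within groups were as follows. With both trends removed, they were 0.26 (replication-dependent histones), -0.070 (OXPHOS complex I), -0.068 (OXPHOS complex III), -0.13 (mitochondrial ribosome), 0.00015 (proteasome), 0.011 (TGF-beta targets), -0.050 (MDA-MB-231 identity), -0.075 (OXPHOS nuclear subunits, complexes I to V), 0.23 (PPAR targets and fatty acid oxidation), -0.088 (keratins). With the length trend removed, they were -0.074 (OXPHOS complex I), -0.075 (OXPHOS complex III), -0.060 (OXPHOS complex IV), -0.12 (mitochondrial ribosome), 0.027 (proteasome), 0.020 (TCA cycle), 0.016 (SWI/SNF subunits), -0.040 (MDA-MB-231 identity), -0.070 (OXPHOS nuclear subunits, complexes I to V), 0.25 (PPAR targets and fatty acid oxidation). With the GC trend removed, they were -0.11 (OXPHOS complex III), -0.19 (mitochondrial ribosome), -0.18 (cholesterol synthesis), 0.17 (EMT and mesenchymal genes), 0.083 (SWI/SNF subunits), -0.064 (MDA-MB-231 identity). With a minimum mean of 10, they were 0.12 (Notch pathway), 0.12 (PPAR targets and fatty acid oxidation). With a pseudocount of 0.1, they were 0.17 (EMT and mesenchymal genes). With a library left out, they ranged from -0.13 to 0.059 for MDA-MB-231 identity, -0.24 to 0.10 for Notch pathway, 0.18 to 0.27 for PPAR targets and fatty acid oxidation, -0.18 to 0.0072 for S phase genes, -0.0039 to 0.086 for SWI/SNF subunits, -0.052 to 0.0097 for TCA cycle, -0.16 to 0.022 for YAP and TEAD targets, -0.24 to -0.17 for cholesterol synthesis and -0.093 to 0.076 for mitochondrial biogenesis. The sign of the median turned in 20 of 41 lists when a library was left out, and in 12 under another setting. Beside lists already given, those that turned without a library ranged from -0.048 to 0.18 for replication-dependent histones, -0.12 to 0.010 for OXPHOS complex II, -0.12 to 0.11 for glycolysis, -0.33 to 0.058 for ATF4 amino acid stress, -0.12 to 0.035 for unfolded protein response, -0.12 to 0.038 for interferon-stimulated genes, -0.13 to 0.17 for inflammatory cytokines, -0.22 to 0.075 for immediate early genes, -0.087 to 0.21 for heat shock response, -0.14 to 0.022 for Wnt/beta-catenin targets, -0.15 to 0.055 for Hedgehog pathway, -0.0035 to 0.13 for breast cancer stem cell markers and -0.33 to 0.045 for structural RNA genes. The log2 difference of 28 of 110 named genes changed sign under at least 1 alternative. The cause was not tested. Of 574 values over 41 lists, 528 moved by less than that spread. Values of named genes were compared by sign and by adjusted call, and not by a spread. With 3 libraries a group, differences near the spread were not detectable, and this spread rather than depth sets the limit.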
